A study of Mus musculus with 4 samples.

Results

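The loci of Gata3, Tbx21 and Eomes were examined for binding of E2A, a basic helix-loop-helix transcription factor, in mouse thymocytes. Peaks were taken from the deposited list of each cell type when their midpoint lay in the gene body or within 300 kb of it on the mm9 assembly. By this rule the 3 loci held 46 of the 17532 peaks of DP cells, the CD4 and CD8 double-positive thymocytes, and 2 of the 1516 peaks of iNKT cells, the invariant natural killer T cells that arise from them. Of these peaks, 12 DP and 0 iNKT peaks were at Gata3, 20 DP and 1 iNKT at Tbx21, and 14 DP and 1 iNKT at Eomes. No peak of either cell type lay inside the body of any of the 3 genes or within 10 kb of its transcription start site.

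Chromatin was immunoprecipitated with an antibody against E2A and sequenced (ChIP-Seq), starting from sorted thymocytes of L-DKO mice. These mice carry Id2 f/f, Id3 f/f and LckCre+, so that both Id2 and Id3 are deleted by a Cre recombinase under an Lck promoter, which is active in the T cell lineage. The mice were 3 to 5 weeks old, on a C57BL/6 or a mixed C57BL/6 and 129 background, and every library was made from pooled cells of 3 to 4 animals. DP cells were sorted as CD1dTet-, CD4+ and CD8+ and iNKT cells as CD1dTet+ and TCRβ+, with 1 E2A library and 1 input library for each of the 2 cell types. Both cell types therefore shared the deletion of Id2 and Id3, and no E2A library from wild-type cells was analysed here. The peak lists hold no expression values, so the identity of the sorted cells could not be checked against marker genes.

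E2A binds DNA as a dimer at short sequences named E-boxes, and Id proteins bind E2A and keep it off DNA. Gata3 encodes GATA3, a zinc finger factor required for early T cell development and the CD4 lineage, which also directs type 2 cytokine production and is high in the NKT2 subset of iNKT cells. Tbx21 encodes T-bet, the T-box factor that directs interferon-γ production and marks NKT1 cells. Eomes encodes Eomesodermin, a T-box factor related to T-bet that acts in natural killer cells and memory CD8 T cells.

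Each peak carries the score that MACS gave it, defined as −10 times log10 of its p-value against input, and the lowest score kept in either list was 50. Scores had a median of 141 among DP peaks and 79.6 among iNKT peaks. Neither list holds read counts, and the depth of the libraries is unknown. Because a score grows with depth, peaks were ranked within their own list, and scores were not compared between cell types. With 1 library per cell type there was no replicate, and no test between DP and iNKT cells could be made. The absence of a peak at these loci says that none was called, not that E2A was absent.

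The limit of 300 kb set which peaks were counted. Just inside it, the farthest DP peaks lay 299.63 kb from the body of Gata3 (score 61.6), 289 kb from that of Tbx21 (score 142) and 281 kb from that of Eomes (score 235). Just outside it, the next DP peaks lay 337, 300.75 and 329 kb away, with scores of 76.3, 595 and 53.1. The next iNKT peaks lay 626, 300.85 and 368 kb away, with scores of 67.1, 59.0 and 128. A peak of each list at Tbx21 thus missed the limit by under 1 kb.

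Sequences of 200 bp at the midpoints of 3 peaks are shown because they are the DP peak nearest to the Gata3 start site and the 2 iNKT peaks of these loci. They are written from 5′ to 3′ on the plus strand of mm9, and capitals mark the E-box cores (CAGGTG, its reverse complement CACCTG, or CAGCTG) wherever they occur.
Gata3, DP peak, chr2:9749373-9749572: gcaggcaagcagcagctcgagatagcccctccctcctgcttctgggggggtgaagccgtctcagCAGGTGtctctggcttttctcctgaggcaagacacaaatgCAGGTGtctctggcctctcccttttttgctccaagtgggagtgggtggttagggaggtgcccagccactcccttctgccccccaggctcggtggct
Tbx21, iNKT peak, chr11:97262726-97262925: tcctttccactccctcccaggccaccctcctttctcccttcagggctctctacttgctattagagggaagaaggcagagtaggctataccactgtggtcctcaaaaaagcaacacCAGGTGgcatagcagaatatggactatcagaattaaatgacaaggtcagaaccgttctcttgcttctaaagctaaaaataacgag
Eomes, iNKT peak, chr9:118296735-118296934: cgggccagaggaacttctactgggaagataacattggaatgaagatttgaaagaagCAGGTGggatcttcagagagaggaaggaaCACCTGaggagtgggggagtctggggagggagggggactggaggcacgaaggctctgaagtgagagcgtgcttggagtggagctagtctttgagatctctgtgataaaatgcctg
The Gata3 window held CAGGTG at 2 positions, and the whole peak of 812 bp held it at 4 and CAGCTG at 2. The Tbx21 window held 1 CAGGTG, at 97262841 to 97262846, and the reverse complement of the Runx core ACCACA at 97262818 to 97262823. The Eomes window held CAGGTG at 118296791 to 118296796 and CACCTG at 118296820 to 118296825. It also held the reverse complement of the Gata core TTATCT, at 118296760 to 118296765, and that of the Tcf/Lef core TCAAAG, at 118296907 to 118296912.

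Gata3 (ENSMUSG00000015619.9) is transcribed from the minus strand and occupies chr2:9778705-9811661. All DP binding at this locus was distal, with 9 peaks on the downstream side and 3 upstream, and no iNKT peak was called. Scores ran from 61.6 to 1968 with a median of 179, and 10 of the 12 peaks had a score of 100 or more. Over the whole DP list, 62.0% of peaks scored 101.5 or more and 62.7% scored 99.8 or more. The peak nearest to the start site, from 9749067 to 9749878, was 62.2 kb downstream of it and 29.2 kb past the end of the gene. Its score of 252 placed it at rank 5843 of 17532. Next to it, the peak from 9717473 to 9718261 scored 261 at a distance of 93.8 kb from the start site. These were the only 2 peaks within 100 kb of the gene.

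The highest peak at Gata3, from 9515004 to 9517930, was 2927 bp wide, with a score of 1968 and rank 665. It was intergenic and lay 295 kb downstream of the start site annotated farthest 5′, which is used here throughout, or 284 kb from that of the transcript Gata3-001. It was the highest of 5 peaks that spanned 39.1 kb, of which the other 4 scored between 61.6 and 186. An enhancer active in T and NK cells has been described far 3′ of Gata3, and whether this group overlaps it was not tested. The 200 bp at the midpoint of the highest peak held no E-box core, and the whole peak held 5. The midpoint of so wide a peak need not be where its signal was highest. Because this was the strongest binding at Gata3, these 5 are shown with 12 bases on either side, on the plus strand of mm9 and with the E-box in capitals.
chr2:9515259-9515264: cggtaacttggcCAGGTGctttctggagtc
chr2:9515416-9515421: gcgatgctcaggCACCTGaagcgacattca
chr2:9515626-9515631: agtaccagactgCAGCTGcttccagccaac
chr2:9516124-9516129: tggctgggttcgCAGCTGtcaacaattaga
chr2:9517045-9517050: tgccctgactctCACCTGctggagggggta
Of these 5, 3 were CAGGTG or its reverse complement and 2 were CAGCTG.

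On the upstream side of Gata3, the peaks lay at other genes. A peak from 9936289 to 9937765, with a score of 647 and rank 2639, was in an intron of Taf3, which encodes a subunit of the general transcription factor TFIID, 125 kb upstream of the Gata3 start site. A peak of score 211 covered the Taf3 start site itself, and a peak of score 102 lay 0.758 kb upstream of that of Itih5. For 9 of the 12 peaks the nearest protein-coding start site was that of a gene annotated inside Gata3, not that of Gata3 itself. These were the 9 downstream peaks, and by transcript the nearest start to them was that of Gata3-001. The iNKT peak closest to Gata3, from 9152639 to 9153609, lay 659 kb downstream with a score of 67.1.

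**Figure D1:**
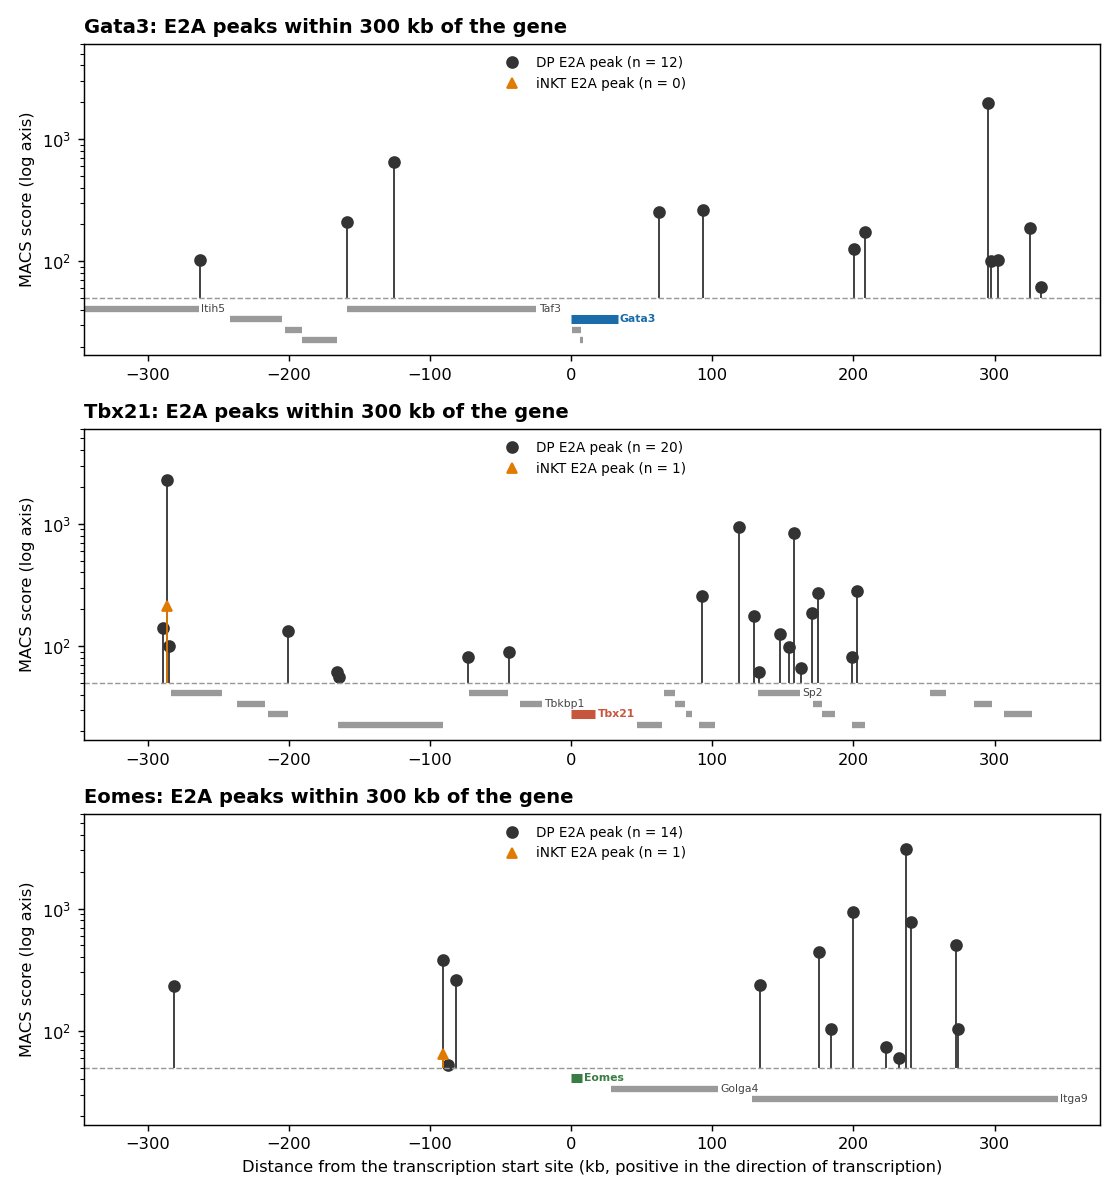
E2A peaks at Gata3, Tbx21 and Eomes, plotted by distance from the start site (kb, positive in the direction of transcription) and MACS score (log axis), with DP peaks as circles, iNKT peaks as triangles, protein-coding genes as bars (labelled where the text names them) and the lowest score kept, 50, as a dashed line. None of the 46 DP peaks or the 2 iNKT peaks falls on the coloured bar of the gene, and the highest DP peak of each locus lies 237 to 295 kb from the start site.

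Tbx21 (ENSMUSG00000001444.2) is also a minus-strand gene, at chr11:96959385-96976645, in the most gene-dense of the 3 windows. The window held the start sites of 18 protein-coding genes, against 8 at Gata3 and 3 at Eomes. Its 20 DP peaks had scores from 55.5 to 2290.5 with a median of 129. Of them, 11 scored 100 or more, beside 62.0% of the DP list at 101.5 or more. None had Tbx21 as the gene with the nearest start site. The nearest to Tbx21, from 97020187 to 97021082, was 43.99 kb upstream with a score of 89.2 and rank 11838, and it lay 7.83 kb upstream of the start site of Tbkbp1, which encodes an adaptor of the kinase TBK1. Of the 20 peaks, 4 covered the start site of a neighbouring gene.

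The highest DP peak at Tbx21, from 97262298 to 97263489, had a score of 2290.5 and rank 529, and lay 286 kb upstream of the gene. It was also the place of the only iNKT peak of this locus, from 97262357 to 97263294, which lay wholly inside it. The iNKT peak had a score of 214 and ranked 180 of 1516, within the highest 11.9% of its list. Both peaks were intergenic, 14.0 kb upstream of the nearest start site, that of Arhgap23. The DP peak had neighbours with scores of 99.8 and 142 on either side, and the 3 spanned 5.46 kb. The E-box nearest to the midpoints of both peaks was the CAGGTG shown in the Tbx21 sequence, 49 bp from the DP midpoint and 18 bp from the iNKT midpoint.

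On the downstream side of Tbx21, 12 DP peaks were spread over 111 kb. The highest, from 96857267 to 96858522 with a score of 948 and rank 1781, was 119 kb downstream of the Tbx21 start site and 13.6 kb upstream of that of Sp2, a zinc finger factor. The next, from 96818224 to 96819601, had a score of 849 and rank 2009 and covered an exon of Sp2. Its 200 bp at the midpoint held 4 copies of CAGCTG and 2 of CAGGTG. No iNKT peak was called on this side.

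Eomes (ENSMUSG00000032446.8), a plus-strand gene at chr9:118387330-118395250, was the locus with the fewest genes, the other 2 start sites being those of Golga4 and Itga9. Upstream of it, 3 DP peaks spanned 10.1 kb, and Eomes had the start site nearest to each of them. The nearest, from 118305227 to 118306586, lay 81.4 kb upstream with a score of 262 and rank 5682. Next came a peak close to the threshold, with a score of 52.4. The farthest, from 118296500 to 118297275, lay 90.4 kb upstream with a score of 377 and rank 4278. This farthest peak overlapped the only iNKT peak of the locus, from 118296530 to 118297139, which lay wholly inside it. This iNKT peak had a score of 64.4 and ranked 995 of 1516, below the middle of its list. It was the iNKT peak nearest to any of the 3 genes, at 90.5 kb from the start site. The only other DP peak on the upstream side scored 235 and lay 281 kb from Eomes, closer to the start site of Cmc1.

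Downstream of Eomes, all 10 DP peaks lay in introns of Itga9, which encodes the integrin α9 subunit, and no iNKT peak was called there. They spanned 141 kb, with scores from 59.4 to 3100 and a median of 339. The highest, from 118622982 to 118626088, was 3107 bp wide and had a score of 3100, a value held by 258 DP peaks, which are tied at rank 27. It lay 237 kb downstream of the Eomes start site and 109 kb inside Itga9, but 3.76 kb past the start of a shorter transcript, Itga9-002. A peak of score 778 from 118627422 to 118628308 followed it. On the side toward Eomes, peaks of score 59.4 and 73.8 came first, and then a peak of score 932 from 118586069 to 118588128. The whole peak of score 3100 held 7 sites of CAGGTG and 4 of CAGCTG. The site nearest to its midpoint, 141 bp away, is shown on the plus strand of mm9 with 12 bases on either side because it belongs to the highest peak of the 3 loci.
chr9:118624391-118624396: tctatttagacaCACCTGccatccctgcac
Peaks at this end of the scale were often shared, since 58.8% of the 284 DP peaks with a score of 3100 or more overlapped an iNKT peak, but this one was not.

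**Figure D2:**
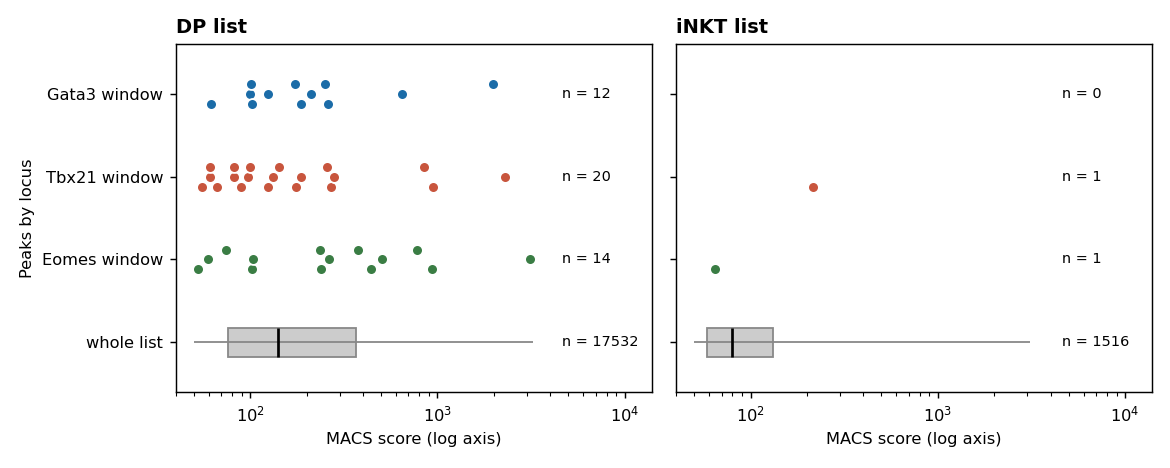
MACS scores (log axis) of the peaks at each locus in the DP list and the iNKT list, with the whole list below as a box of its quartiles, a line at its median and a line from its lowest to its highest score; points are set apart vertically only to be seen. Each locus has 1 DP peak far to the right, at 1968 for Gata3, 2290.5 for Tbx21 and 3100 for Eomes, and the others range from 52.4 to 948.

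Sharing between the cell types was low at these loci and near that of the whole list. An iNKT peak overlapped 2 of the 46 DP peaks, or 4.35% (95% Clopper-Pearson interval 0.53 to 14.8, for counting error only), against 5.99% of all DP peaks. By locus the shared peaks were 0 of 12 at Gata3 (0 to 26.5%), 1 of 20 at Tbx21 (0.13 to 24.9%) and 1 of 14 at Eomes (0.18 to 33.9%). These intervals overlap, so the loci could not be told apart at this number of peaks. Both iNKT peaks overlapped a DP peak, as did 69.3% of the iNKT list. Each locus had 1 DP peak among the 1516 highest of the DP list, as many as the iNKT list holds, and only that at Tbx21 overlapped an iNKT peak. Of those 1516 DP peaks, 33.6% did so.

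DP peaks were more frequent in the windows of these genes than in those of most others. The nearest DP peak lay at an ordinary distance from each start site. For 12 of the 46 DP peaks the nearest start site was that of 1 of the 3 genes or of a gene inside it. At least 1 DP peak within 300 kb was found for all 3 genes and for 80.4% of the 22350 protein-coding genes. The gene window held a median of 5 DP peaks over all genes, and 73.8% of genes had fewer than Gata3, 79.6% fewer than Eomes and 90.8% fewer than Tbx21. Per Mb of window the values were 18.96 at Gata3, 23.0 at Eomes and 32.4 at Tbx21, against a median of 8.26. Fewer protein-coding start sites than in the Tbx21 window were found for 71.2% of genes. For Gata3 this share was 30.9% and for Eomes 4.80%. The nearest DP peak was 43.99 to 81.4 kb from the 3 start sites, and the median over all genes was 54.7 kb.

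None of the 3 genes had a DP peak in its body, which 20.4% of protein-coding genes had. None had a DP peak in its body or within 10 kb of the start site, which 30.3% had, so that lacking one was the common state. Of the 5867 genes with 12 or more DP peaks in their window, 1053, or 18.0%, had no DP peak in the body or within 40 kb of the start site, as was the case for Gata3, Tbx21 and Eomes. Over all protein-coding genes the same was true of 11981, or 53.6%. Both limits in these counts were chosen after the values of the 3 genes were seen. An iNKT peak lay within 300 kb of 2 of the 3 genes and of 36.9% of all genes. Over the 46 DP peaks, 5 covered the start site of some protein-coding gene, all of them neighbours, beside 13.4% of the DP list.

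**Figure D3:**
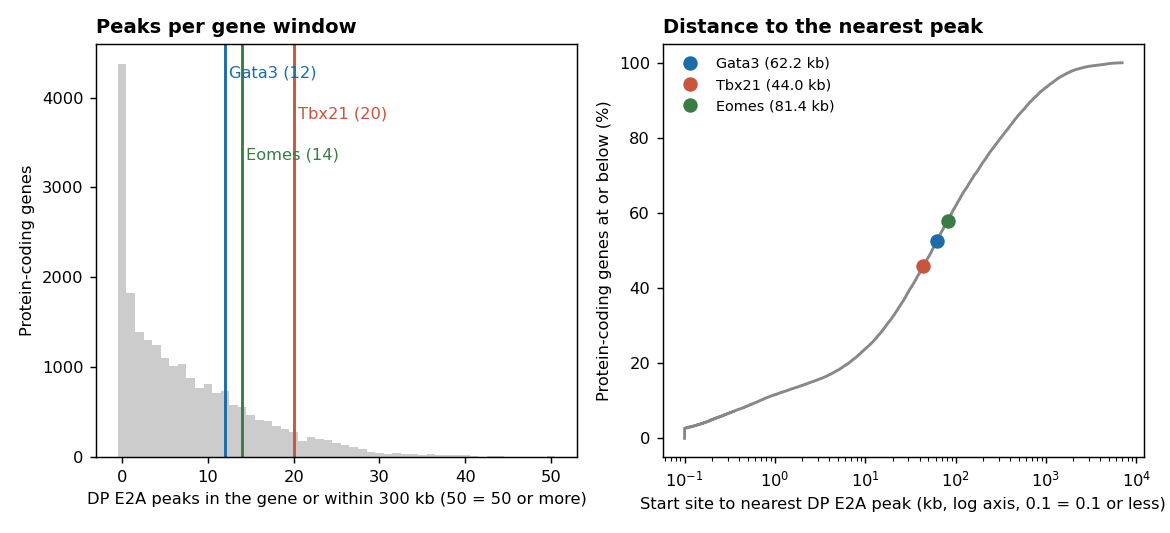
Left, number of protein-coding genes by their count of DP E2A peaks in the gene or within 300 kb; right, share of protein-coding genes (%) whose start site lies at or below a given distance from a DP peak (kb, log axis). The counts of 12, 20 and 14 at Gata3, Tbx21 and Eomes lie in the upper part of the distribution, and their distances of 62.2, 43.99 and 81.4 kb lie near its middle.

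Other regulators of NKT cells had DP peaks at or inside their genes. Of 14 such genes, 13 were found in the annotation by name. All 13 had a DP peak in the body or within 10 kb of the start site, beside 30.3% of all genes, and 11 had one in the body, beside 20.4%. An iNKT peak lay in the window of 9, beside 36.9%. The 13 genes had a median of 15 DP peaks per window and of 1.4 kb from the start site to the nearest DP peak. Ets1, an ETS factor needed for NKT cells, had 13 DP peaks in its body, up to a score of 3100, and an iNKT peak of 68.4. Bcl11b, a zinc finger factor of T cell commitment, had 8, up to 2939. Zbtb7b, which encodes ThPOK, had 3 up to 662 and an iNKT peak of 220 in its body. At Zbtb16, which encodes PLZF, the body peaks were close to the threshold, up to 54.9 in DP cells and 54.1 in iNKT cells. The 2 genes without a DP peak in the body had one within 10 kb of the start site. The list was drawn up with earlier results of these data known, so its counts describe the genes it names.

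The other members of the GATA and T-box families had a DP peak in the window about as often as genes in general. A DP peak in the body or near the start site was less frequent among them. Of 20 family members, 16 had a DP peak in the window, beside 80.4% of all genes. The medians were 2.50 DP peaks per window and 113 kb to the nearest, against 5 and 54.7 kb over all genes. Only 1 had a DP peak in the body, beside 20.4% of all genes. The exception was Tbx19, a T-box factor of the pituitary, with 2 peaks in its body up to a score of 320. With peaks within 10 kb of the start site included, 2 of the 20 had a DP peak, beside 30.3% of all genes. Gata3, Tbx21 and Eomes had 12 to 20 DP peaks per window, where the other family members had 0 to 21. An iNKT peak lay in the window of 5 of the 20, beside 36.9% of all genes.

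E-box cores occurred throughout the 3 windows, gene bodies included. Counted on both strands, CAGGTG occurred 18 times in the body of Gata3, 17 times in that of Tbx21 and 6 times in that of Eomes, and CAGCTG occurred 13, 12 and 3 times. With no DP peak in these bodies, the copies there lay outside peaks by construction. Over the whole windows, 18 of 441 copies of CAGGTG lay in a DP peak at Gata3, which is 4.08%. At Eomes, 23 of 472 copies (4.87%) did so, and at Tbx21 37 of 560 (6.61%). On chromosomes 1 to 19 and X together the share was 1.86%. These shares follow the number of DP peaks in the windows and are not a separate measure.

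The DP peaks of the 3 loci carried E-boxes about as often as the list as a whole. CAGGTG was in the 200 bp at the midpoint of 20 of the 46 peaks, or 43.5% (28.9 to 58.9), beside 43.9% of all DP peaks, and in 16.3% of the flanks 2 kb away. CAGCTG was in 13, or 28.3% (15.99 to 43.5), beside 29.0%. By locus CAGGTG was in 4 of 12 peaks at Gata3, 11 of 20 at Tbx21 and 5 of 14 at Eomes, and the intervals of the 3 shares overlapped. Either core was in the 200 bp of 27 of the 46 peaks, or 58.7% (43.2 to 73.0), beside 60.8% of all DP peaks.

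Cores of other factors were searched on both strands in the same windows. The Runx core ACCACA was in 10 of the 46 peaks (21.7%), beside 23.8% of the list. In the flanks 2 kb away it was in 21.7% at these loci, the same share as in the peaks, and in 15.8% over the list. The Tcf/Lef core TCAAAG, bound by the HMG factors TCF1 and LEF1, was in 13, or 28.3% (15.99 to 43.5), beside 17.4% of the list. Of these, 6 were at Eomes, where the share was 42.9% (17.7 to 71.1). The interval at Eomes barely leaves out the share of the list, and this core was singled out after 6 had been compared. The Gata core TTATCT was in the 200 bp of 3 of the 46, all among the 12 peaks at Gata3 itself, so that the share there was 25% (5.49 to 57.2), beside 8.89% of the list. In the flanks of the Gata3 peaks, 2 kb away, the same core was in 5 of 24 windows, or 20.8%. The count depends on the window, since the Gata core shown in the Eomes sequence, at 118296760 to 118296765, lies inside the shared DP peak there but outside its 200 bp. The 3 peaks at Gata3 were downstream of the gene and scored 99.8, 172 and 186. The T-box core GGTGTGA was in 3 of the 46 (6.52%), 2 at Tbx21 and 1 at Eomes, beside 4.13% of the list. None of these 3 overlapped a copy of CAGGTG. A match to so short a core is a description of sequence and shows no binding by the factor.

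**Figure D4:**
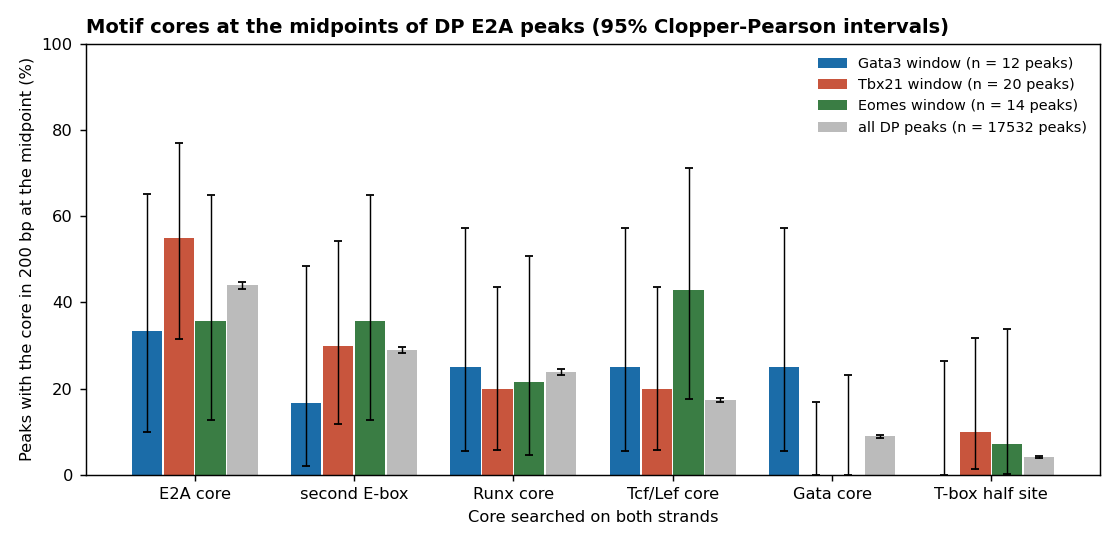
Share of DP peaks (%) with each of 6 cores in 200 bp at the midpoint, for the windows of Gata3, Tbx21 and Eomes and for all DP peaks, with 95% Clopper-Pearson intervals as error bars. The intervals of the 3 loci are wide and overlap one another for every core, and within these 200 bp the Gata core is found in 3 of the 12 peaks at Gata3 and in none of the 20 at Tbx21 or the 14 at Eomes.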

How the data were processed

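E2A ChIP-Seq was done on L-DKO DP and iNKT cells, with 1 E2A and 1 input library per cell type, and the 2 deposited E2A peak lists were used. According to the submitters' processing notes and methods, the authors used Bowtie 1.1.2 for alignment to mm9, keeping only uniquely placed reads, and MACS 1.4.2 with its defaults for peak calling. Repeated sequence is therefore under-represented. The deposited score is the authors' value for each peak, 10 times the negative log10 of its p-value. Inputs, reads and coverage are not analysed here, and depth is unknown.

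Genes came from GENCODE release M1 on NCBIM37, the assembly of mm9. A start site was the 5′ end of the gene, a peak was assigned by its midpoint, and an overlap needed 1 bp. Positions are counted from 1. The lists give the start and end of each peak but not the position of its highest signal, so motif windows were placed at the midpoint. The background was 22350 protein-coding genes on chromosomes 1 to 19 and X. Cores were searched on both strands, and intervals are Clopper-Pearson intervals at 95%. Peaks were described singly if they were iNKT peaks, overlapped the other list, lay within 10 kb of the start site or were among the 3 highest of their locus and list. Neighbouring genes are those with the nearest start site. Other peaks described singly, and Golga4, were chosen after their values were seen. The alternatives were minimum scores of 100 and 200, other windows, a stricter overlap and other motif windows. The members, lists and settings were chosen with earlier results of these data known. Position and motif functions passed 5 of 5 checks on simulated input. The software was matplotlib 3.10.9, pandas 2.3.3, scipy 1.17.1, numpy 2.4.6 and Python 3.11.15.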

Additional observations from a re-analysis of the deposited data

How the results depend on the processing

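Of 53 values under alternative settings for 11 results, 34 stayed within 1.5 times the reported count or within the interval of the reported share, and 19 moved. The moved values include counts of 1 iNKT or shared peak that became 0. The values that stayed include the counts of 0 iNKT and 0 shared peaks at Gata3. A higher minimum score, a smaller window or a stricter overlap could not have changed these. With a minimum score of 100, Tbx21 kept 11 DP peaks, and Eomes had 0 iNKT peaks and 0 shared peaks. With a minimum of 200, Gata3 had 5 DP peaks, Tbx21 had 6 and Eomes had 9, and Eomes again had 0 iNKT peaks and 0 shared peaks. Within 100 kb of the gene, Gata3 had 2 DP peaks, Tbx21 had 3 and Eomes had 3, and Tbx21 had 0 iNKT peaks and 0 shared peaks. Within 500 kb, a window added after the data were seen, Eomes had 22 DP peaks and 2 iNKT peaks, Tbx21 had 2 iNKT peaks, and Gata3 still had 0. CAGGTG was in 78.3% of the DP peaks of the 3 loci when the whole peak was searched, beside 79.0% of the list. CAGCTG was in 47.8% with 400 bp at the midpoint, beside 43.5% of the list, and in 76.1% of whole peaks, beside 63.4%. These moves follow from fewer peaks, a different window or longer sequence. No paired analysis was possible because each cell type had 1 E2A library and no test was made. The iNKT peak at Eomes rests on a score near the threshold, whereas that at Tbx21 was kept at both minimum scores. Without read counts, a call missed for lack of depth in the shorter iNKT list cannot be told apart from a lack of binding.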
